A study of Mus musculus with 11 samples.

Results

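The 10 clock output genes Per1, Per2, Per3, Cry1, Cry2, Nr1d1, Nr1d2, Dbp, Tef and Ciart were followed in RNA sequencing libraries from the full wall of the colon of 2-week-old mice. They were taken by gene symbol from the deposited transcript table, in which the transcripts of 35683 genes were summed per gene, and all 10 were present and passed the filter on low values. The groups were 6 Tnfr1-/- mice, which lack tumour necrosis factor receptor 1 (gene Tnfrsf1a), and 5 wild type mice, both at 2 weeks of age and with no treatment named. Each library was 1 mouse. Strain background, sex, litter, light schedule and the hour of dissection are not given in the sources used here, so the p-values measure only the spread between these mice, and a litter or hour shared by a genotype cannot be told apart from it. The series asks what loss of the receptor does in early life. For the clock genes the comparison answers whether their RNA differed between the genotypes, and the libraries show how far it varied from colon to colon. Whether that spread follows the time of day cannot be told without the hour of dissection.

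The mammalian clock is a loop in which the proteins CLOCK and BMAL1 (gene Arntl) bind E-box sequences and switch on their own repressors, the period (Per) and cryptochrome (Cry) genes and Ciart. The same activators drive Nr1d1 and Nr1d2, which encode the nuclear receptors REV-ERB alpha and beta that repress Arntl, and Dbp and Tef, which encode PAR bZIP factors that bind D-box sequences in further target genes. In adult tissues, the gut among them, Dbp, Nr1d1 and the Per genes are high at about the time when Arntl is low.

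The promoters are shown because those binding sequences are how the members are tied to the clock. RefSeq promoters (GRCm38.p6) were found for 9 of the 10 members, and Per2 was not among them. The 250 bases before each start site were searched on both strands for the E-box CACGTG, its variant CACGTT, the D-box forms TTATGTAA and TTACGTAA, and the ROR element cores TAGGTCA and TGGGTCA. No match overlapped another. Capitals mark a match, which on the printed strand may read as the reverse complement (AACGTG for CACGTT). Shown are the 3 repressors with an E-box, Nr1d1 with a variant, 1 start site of Tef, and the pair Per3 and Nr1d2, whose RNA moved together most closely across libraries.
Ciart promoter, chr3:95882229-95882478, minus strand: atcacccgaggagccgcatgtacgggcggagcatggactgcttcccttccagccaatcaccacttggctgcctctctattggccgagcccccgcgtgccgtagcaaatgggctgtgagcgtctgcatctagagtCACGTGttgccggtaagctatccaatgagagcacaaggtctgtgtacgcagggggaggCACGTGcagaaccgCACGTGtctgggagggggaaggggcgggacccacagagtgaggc
Per1 promoter at start site 1, chr11:69098699-69098948, plus strand: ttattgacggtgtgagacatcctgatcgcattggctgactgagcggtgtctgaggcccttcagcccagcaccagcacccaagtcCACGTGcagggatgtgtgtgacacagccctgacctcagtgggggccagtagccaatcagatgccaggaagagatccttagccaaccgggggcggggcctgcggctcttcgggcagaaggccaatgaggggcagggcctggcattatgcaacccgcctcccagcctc
Cry1 promoter, chr10:85185055-85185304, minus strand: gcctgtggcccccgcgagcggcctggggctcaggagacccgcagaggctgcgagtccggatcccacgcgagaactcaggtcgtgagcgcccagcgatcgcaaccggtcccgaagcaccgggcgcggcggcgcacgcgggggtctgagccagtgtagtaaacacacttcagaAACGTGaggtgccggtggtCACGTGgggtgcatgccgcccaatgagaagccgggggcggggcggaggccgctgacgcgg
Nr1d1 promoter, chr11:98775378-98775627, minus strand: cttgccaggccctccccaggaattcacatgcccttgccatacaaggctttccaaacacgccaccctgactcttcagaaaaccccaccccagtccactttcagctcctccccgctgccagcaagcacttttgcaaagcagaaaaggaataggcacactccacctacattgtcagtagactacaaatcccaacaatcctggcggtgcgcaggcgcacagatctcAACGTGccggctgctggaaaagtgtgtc
Tef promoter at start site 2, chr15:81811164-81811413, plus strand: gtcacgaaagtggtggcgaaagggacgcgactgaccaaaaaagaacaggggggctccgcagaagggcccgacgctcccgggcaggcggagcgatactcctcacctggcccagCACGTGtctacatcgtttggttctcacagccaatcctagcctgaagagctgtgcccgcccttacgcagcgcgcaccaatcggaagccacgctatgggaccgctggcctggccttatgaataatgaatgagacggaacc
Per3 promoter, chr4:151044666-151044915, minus strand: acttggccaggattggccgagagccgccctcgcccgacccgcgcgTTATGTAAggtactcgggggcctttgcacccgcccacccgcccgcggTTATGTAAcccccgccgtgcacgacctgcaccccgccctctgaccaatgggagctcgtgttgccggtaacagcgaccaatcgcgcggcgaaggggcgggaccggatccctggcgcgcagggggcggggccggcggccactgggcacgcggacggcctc
Nr1d2 promoter, chr14:18239107-18239356, minus strand: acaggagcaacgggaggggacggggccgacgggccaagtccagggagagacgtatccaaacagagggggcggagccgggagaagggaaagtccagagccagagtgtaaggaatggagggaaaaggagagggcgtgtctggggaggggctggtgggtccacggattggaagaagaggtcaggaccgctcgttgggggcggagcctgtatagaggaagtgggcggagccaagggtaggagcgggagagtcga
Ciart held 3 copies of CACGTG, starting 44, 58 and 116 bases before the start site. Per1 had 1 at 166 bases at start site 1 and none of the motifs at start site 2. Tef had 1 at each of 2 start sites, at 127 and 138 bases. Cry1 held 1 CACGTG and 1 CACGTT, at 60 and 79 bases. Among all 32851 RefSeq promoters of this length, 6.02% held CACGTG and 3.85% held CACGTT. Nr1d1 and Cry2 each had 1 CACGTT, at 28 and 166 bases. Per3 was the member with D-boxes, 2 copies of TTATGTAA at 158 and 205 bases, a sequence in 0.819% of all promoters. Nr1d2 and Dbp held none of the 6 sequences in this window. TTACGTAA (0.113% of promoters), TAGGTCA (2.23%) and TGGGTCA (3.24%) were in no window of the members. A match is a description of the letters and says nothing of binding in these colons.

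Values below are scaled TPM (transcript abundance per length and depth, adjusted by the authors between libraries) and are called abundance. Estimated depth was 27.6 to 42.1 M reads per library. As a check of the labels, Tnfrsf1a had a mean of 67.1 ± 5.04 (n = 5, SD) in wild type and 22.4 ± 3.54 (n = 6, SD) in Tnfr1-/-, the 1 gene of 15079 called between the genotypes (limma adjusted p = 8.5e-05). All 6 colon epithelium markers and all 5 smooth muscle markers were above 1 in every library. The summed abundance of 5 squamous epithelium markers was 1125, 995, 749, 1062, 282 and 1318 in Tnfr1-/- replicates 1 to 6. In wild type it was 479 to 697, so all Tnfr1-/- libraries but replicate 5 lay above every wild type library. The sum of 5 pancreas markers was 131.8 to 156.5 in replicates 1 and 2 of both genotypes and 65.9 to 97.2 in all other libraries. The part of these tissues in the clock gene values was not tested. Libraries stood apart in skeletal muscle RNA: the summed abundance of 6 skeletal muscle markers was 700.1, 7574, 513.8, 949.2, 2413 and 570.6 in Tnfr1-/- replicates 1 to 6 and 629, 611.1, 395, 528 and 1627 in wild type replicates 1 to 5. No marker of that list was at 0 in every library, and Myh4, a fast myosin heavy chain, ran from 0.160 to 101. The 3 highest libraries (Tnfr1-/- replicates 2 and 5, wild type replicate 5) bear on several results below, which are therefore also given without them.

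The members were present at moderate to low levels. Mean abundance over the 11 libraries was highest for Tef at 29.7 ± 5.36 (n = 11, SD), followed by Nr1d2 at 22.1 ± 2.09, Dbp at 20.4 ± 2.44, Nr1d1 at 13.7 ± 2.38 and Cry1 at 13.2 ± 0.977. Cry2 was at 10.8 ± 1.495, Per1 at 10.3 ± 2.28, Per3 at 9.002 ± 1.37, Per2 at 8.07 ± 1.39 and Ciart at 2.69 ± 0.797. Abundance is per transcript length, so these levels can be set against each other. Tef stood above Nr1d2, Dbp above Nr1d1 and Per2 above Ciart in 11 of 11 libraries. Nr1d2 exceeded Dbp in 9, Cry1 exceeded Cry2 in 9, Per1 exceeded Per3 in 9 and Per3 exceeded Per2 in 9. Nr1d1 exceeded Cry1 in 7 and Cry2 exceeded Per1 in 6, so neither of these neighbours was ordered beyond the spread between libraries.

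The members differed in how far they varied across the 11 colons. The highest library was 1.28 times the lowest for Cry1, 1.36 times for Nr1d2, 1.42 times for Dbp, 1.72 times for Tef, 1.77 times for Nr1d1, 1.92 times for Per1 and 2.62 times for Ciart. Estimated reads in the lowest library were 40.9 for Ciart, a counting error of 15.6%, and 566 or more for each other member, a counting error of at most 4.204%. The SD over libraries on the log2 scale was 0.29 for Per1, 0.24 for Nr1d1 and for Tef, 0.22 for Per2, 0.20 for Per3, 0.19 for Cry2, 0.16 for Dbp, 0.13 for Nr1d2 and 0.10 for Cry1. Among 5366 genes in the same range of levels the median SD was 0.15. Of the 9 members other than Ciart, 7 had an SD above that median. Per1 stood at the 84.2 percentile of those genes, Nr1d1 at the 78.1, Tef at the 76.9, Per2 at the 74.0, Per3 at the 68.9, Cry2 at the 66.0, Dbp at the 55.8, Nr1d2 at the 39.1 and Cry1 at the 25.9. Dbp, one of the genes with the widest daily swings in adult tissues, was thus closer to the middle than Per1, Nr1d1 or Tef.

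No clock output gene was called different between Tnfr1-/- and wild type colons. By limma, 0 of the 10 members passed at an adjusted p under 0.05, where 0.00663% of the 15079 tested genes did. At an unadjusted p under 0.05 there was 1 of 10, Nr1d1, against 9.37% of all genes in either direction, 4.2% higher and 5.17% lower in Tnfr1-/-. By the exact permutation test over all 462 assignments of the genotypes there were 0 of 10, the lowest p being 0.0584 for Per2. The mean was higher in Tnfr1-/- for 8 members and lower for 2 (Cry1 and Ciart), with a median of 0.13 for the log2 ratio of Tnfr1-/- over wild type, where 47.9% of all genes lay above 0 and their median was -0.01. The groups overlapped for all 10 members, while 1.49% of all genes had groups that did not overlap. The members share their libraries and several vary together (below), so 8 of 10 is not a count of independent genes. In whole tissue, fewer cells of a type and less RNA per cell cannot be told apart.

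**Figure D1:**
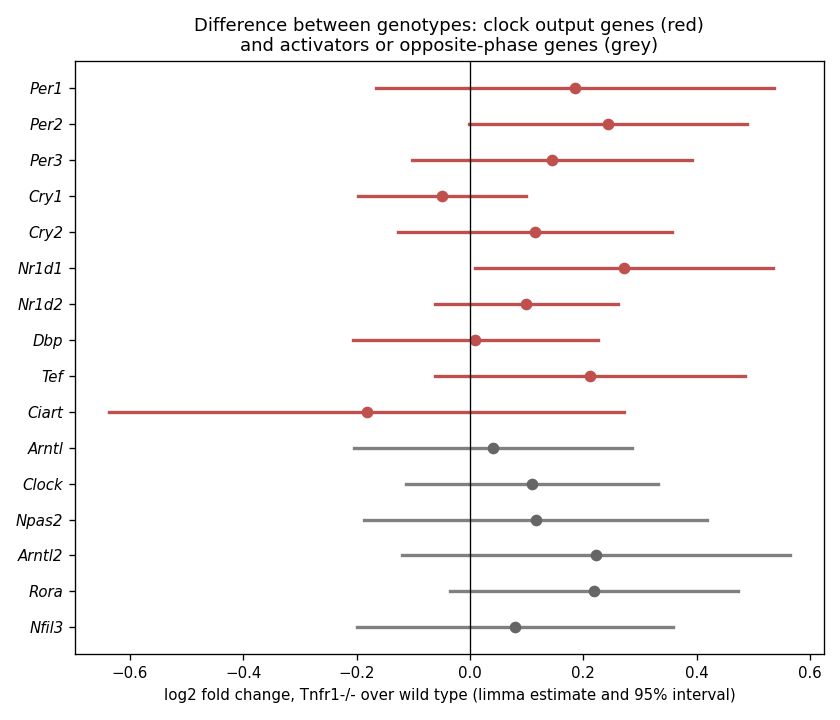
Log2 ratio of Tnfr1-/- over wild type for each gene, with its 95% interval from limma (points and bars; 6 against 5 mice), for the 10 clock output genes (red) and 6 activators or opposite-phase genes (grey). Every interval includes 0 except that of Nr1d1, which runs from 0.01 to 0.53.

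The period genes encode the main repressors of the loop. Per1 abundance was 13.0, 14.98, 7.92, 9.26, 9.55 and 11.2 in Tnfr1-/- replicates 1 to 6 and 7.81, 9.28, 8.997, 9.05 and 12.3 in wild type replicates 1 to 5. The highest values were those of Tnfr1-/- replicates 2 and 1 and wild type replicate 5, and the groups overlapped over most of their range. Its means were 11.0 ± 2.62 (n = 6, SD) and 9.49 ± 1.68 (n = 5, SD), a log2 ratio of 0.19 (SE 0.16, limma adjusted p = 0.747). It was 0.093 without Tnfr1-/- replicate 2, 0.12 without wild type replicate 1 and 0.030 with sample quality weights.

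Per2, the partner of Per1 in the repressor complex, was at 8.94, 11.3, 8.77, 8.11, 8.79 and 6.63 in Tnfr1-/- and at 7.62, 6.94, 6.89, 8.23 and 6.60 in wild type. Of the Tnfr1-/- libraries, 4 lay above all wild type libraries, and Tnfr1-/- replicate 6 lay at the low end beside wild type replicate 5. Means were 8.75 ± 1.51 (n = 6, SD) and 7.25 ± 0.658 (n = 5, SD), and the log2 ratio was 0.24 (SE 0.11, exact permutation p = 0.0584, limma adjusted p = 0.532). Without the 3 libraries highest in skeletal muscle markers it was 0.12 (limma adjusted p = 0.862).

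Per3, a period gene with a smaller part in keeping the rhythm, was at 10.6, 12.04, 8.18, 8.95, 9.39 and 7.64 in Tnfr1-/- and at 8.65, 8.69, 7.37, 7.90 and 9.64 in wild type. Tnfr1-/- replicates 2 and 1 were again highest, and the remaining libraries of both groups were mixed. The log2 ratio was 0.14 (SE 0.11, limma adjusted p = 0.724), and 0.075 without Tnfr1-/- replicate 2.

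**Figure D2:**
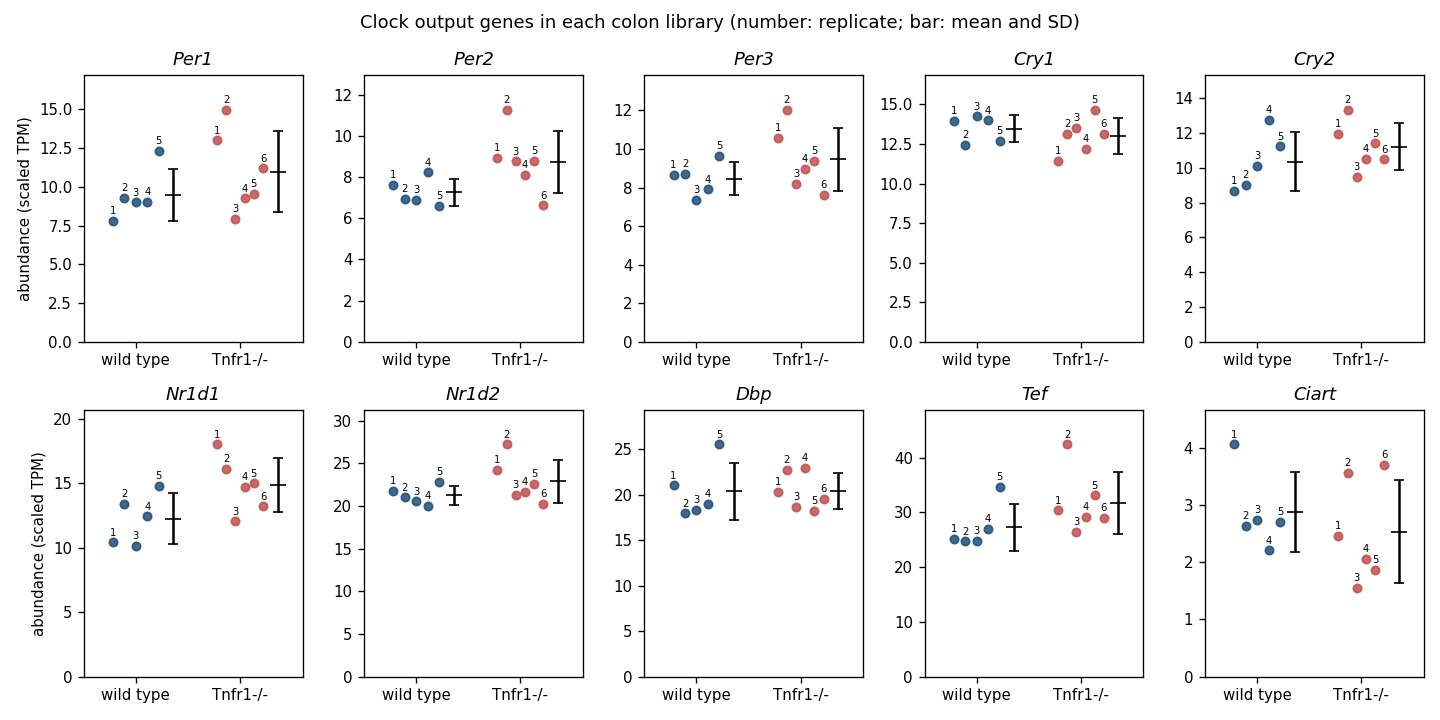
Abundance (scaled TPM, vertical axis from 0) of the 10 clock output genes in each library; numbers are replicates, and the bar beside each group is its mean and SD (5 wild type and 6 Tnfr1-/- mice). The groups overlap in every panel, and Tnfr1-/- replicate 2 is highest for Per1, Per2, Per3, Cry2, Nr1d2 and Tef.

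Cry1 and Cry2 encode the cryptochromes, which bind the period proteins and block CLOCK and BMAL1. Cry1 was the steadiest member, at 11.4, 13.1, 13.5, 12.2, 14.7 and 13.2 in Tnfr1-/- and 14.0, 12.4, 14.2, 14.0 and 12.7 in wild type. The lowest and the highest of all 11 values were both Tnfr1-/-. The log2 ratio was -0.05 (SE 0.07, limma adjusted p = 0.856), with a 95% interval of 0.872 to 1.07 for the fold. Cry2 was at 11.96, 13.3, 9.48, 10.5, 11.4 and 10.5 in Tnfr1-/- and 8.67, 9.01, 10.1, 12.8 and 11.2 in wild type, again with overlapping groups. Its log2 ratio was 0.11 (SE 0.11, limma adjusted p = 0.776).

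Ciart encodes a further repressor of CLOCK and BMAL1 and is strongly rhythmic in adult tissues. It was at 2.46, 3.56, 1.55, 2.06, 1.87 and 3.71 in Tnfr1-/- and 4.07, 2.64, 2.75, 2.21 and 2.71 in wild type. Wild type replicate 1 was highest and Tnfr1-/- replicate 3 lowest. The mean was 2.54 ± 0.904 in Tnfr1-/- (n = 6, SD) and 2.88 ± 0.700 in wild type (n = 5, SD), a log2 ratio of -0.18 (SE 0.21, limma adjusted p = 0.814). It was -0.068 without wild type replicate 1, -0.080 without Tnfr1-/- replicate 3 and -0.29 without Tnfr1-/- replicate 6. The interval of the fold, 0.643 to 1.21, was the widest of the members.

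The REV-ERB genes repress Arntl. Nr1d1 was at 18.0, 16.1, 12.1, 14.7, 15.02 and 13.2 in Tnfr1-/- and 10.4, 13.4, 10.2, 12.4 and 14.8 in wild type. The 3 highest libraries were Tnfr1-/- and the 2 lowest were wild type, with the others interleaved. Means were 14.9 ± 2.11 (n = 6, SD) and 12.3 ± 1.97 (n = 5, SD), and the log2 ratio of 0.27 (SE 0.12) had an unadjusted limma p of 0.0434 and an adjusted p of 0.523. The exact permutation p was 0.0758, and the interval of the fold ran from 1.01 to 1.45. Without the 3 libraries highest in skeletal muscle markers the log2 ratio was 0.30 (limma adjusted p = 0.708).

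Nr1d2, the closely related receptor, was at 24.2, 27.2, 21.3, 21.6, 22.6 and 20.2 in Tnfr1-/- and 21.8, 21.0, 20.6, 20.02 and 22.8 in wild type. Apart from Tnfr1-/- replicates 1 and 2, the libraries of both groups covered the same narrow range. The log2 ratio was 0.10 (SE 0.07, limma adjusted p = 0.708), with an interval of the fold from 0.958 to 1.20.

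Dbp is an output factor controlled directly by CLOCK and BMAL1. It was at 20.3, 22.8, 18.7, 22.9, 18.2 and 19.6 in Tnfr1-/- and 21.0, 17.9, 18.3, 19.0 and 25.5 in wild type. Both the highest library (wild type replicate 5) and the lowest (wild type replicate 2) were wild type. Means were 20.4 ± 2.03 (n = 6, SD) and 20.4 ± 3.12 (n = 5, SD), and the log2 ratio of 0.01 (SE 0.10, limma adjusted p = 0.985) had an interval of the fold from 0.867 to 1.17.

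Tef, the related PAR bZIP factor and the most abundant member, was at 30.3, 42.4, 26.4, 29.2, 33.1 and 29.0 in Tnfr1-/- and 25.1, 24.7, 24.8, 27.0 and 34.7 in wild type. The 3 highest values were those of Tnfr1-/- replicate 2, wild type replicate 5 and Tnfr1-/- replicate 5, the 3 libraries with most skeletal muscle marker RNA. The means were 31.8 ± 5.65 (n = 6, SD) and 27.3 ± 4.28 (n = 5, SD), a log2 ratio of 0.21 (SE 0.12, exact permutation p = 0.143, limma adjusted p = 0.631). Without those 3 libraries it was 0.17 (SE 0.06, limma adjusted p = 0.634). Whether muscle RNA has a part in the level of Tef was not tested.

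The genes on the other arm of the loop showed no called difference either. Arntl and its relative Arntl2 encode the BMAL activators, Clock and Npas2 their partners, Rora and Rorb receptors that activate Arntl, and Nfil3 a repressor that competes with DBP and TEF at D-boxes. Of these 7 genes 6 were tested and Rorb, at 0.0911 to 0.210, was below the filter. The mean was higher in Tnfr1-/- for 6 of 6, with 0 called, 0 at an unadjusted limma p under 0.05, 0 by the exact permutation test, and a median log2 ratio of 0.11. Over all genes 47.9% lay above 0, 9.37% had an unadjusted p under 0.05 and 0.00663% were called. Arntl itself was at 9.77, 8.82, 8.63, 10.4, 10.4 and 9.75 in Tnfr1-/- and 9.80, 11.1, 8.94, 10.6 and 6.84 in wild type. Wild type replicate 5, highest in Dbp, was lowest in Arntl. Nfil3 was at 8.49, 8.84, 11.8, 12.8, 11.4 and 13.8 in Tnfr1-/- and 9.5, 9.12, 11.1, 11.1 and 11.4 in wild type. Replicates 1 and 2 of both genotypes were thus below all other libraries, a split across the genotypes whose cause was not tested. Its log2 ratio was 0.08 (SE 0.13, limma adjusted p = 0.887). The log2 ratio of Arntl was 0.04 (SE 0.11, limma adjusted p = 0.947), and that of Rora, the lowest p of these genes, was 0.22 (SE 0.12, exact permutation p = 0.0909, limma adjusted p = 0.594). The median log2 ratios of both lists, outputs and activators, thus lay above 0.

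Of 17 further clock regulators and outputs, 15 were tested, 10 were higher and 5 lower in Tnfr1-/-, 0 were called and the median log2 ratio was 0.043. At an unadjusted limma p under 0.05 there were 2 of 15, both higher, Btrc and Sfpq, where 4.2% of all genes were higher at that p and 47.9% lay above 0. Btrc, the ligase subunit for period proteins, was at 12.4 ± 0.543 in Tnfr1-/- (n = 6, SD) and 11.0 ± 1.25 in wild type (n = 5, SD), with a limma adjusted p of 0.513. Sfpq, an RNA-binding protein of the period complex, was at 222 ± 6.26 and 206 ± 14.6, with a limma adjusted p of 0.526. Csnk1e, a kinase of period proteins, had the next lowest p, at 24.0 ± 5.70 and 19.3 ± 3.79 (limma adjusted p = 0.622), followed by Usp2, a ubiquitin protease under clock control, at 6.54 ± 2.41 and 5.02 ± 0.346 (limma adjusted p = 0.647). Usp2 was at 11.2 in Tnfr1-/- replicate 2, the library with the highest muscle marker sum, and at 4.84 to 6.86 in the other 5 Tnfr1-/- libraries. The part of muscle RNA in this difference was not tested.

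The libraries were put in order by Dbp, Nr1d1 and the Per genes as a description. Since no hour of dissection was at hand, that order cannot be set against the time of day. By Dbp the order from the highest was wild type 5, Tnfr1-/- 4, Tnfr1-/- 2, wild type 1, Tnfr1-/- 1, Tnfr1-/- 6, wild type 4, Tnfr1-/- 3, wild type 3, Tnfr1-/- 5 and wild type 2. By Nr1d1 it was Tnfr1-/- 1, Tnfr1-/- 2, Tnfr1-/- 5, wild type 5, Tnfr1-/- 4, wild type 2, Tnfr1-/- 6, wild type 4, Tnfr1-/- 3, wild type 1 and wild type 3. By Per1 the first 3 were Tnfr1-/- 2, Tnfr1-/- 1 and wild type 5, and by Per3 they were the same 3 libraries in the same order. Per2 placed Tnfr1-/- libraries at ranks 1 to 4 and wild type 5 last. The genotypes were mixed along the order by Dbp and less so along those by Nr1d1 and Per2, with Tnfr1-/- libraries at the top of both, and the orders by Dbp and Nr1d1 differed most in where they put Tnfr1-/- replicate 5 (rank 10 and rank 3) and wild type replicate 1 (rank 4 and rank 10).

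Tnfr1-/- replicate 2 was highest for 6 of the 10 members and above the mean for 9, with a median deviation of 0.35 on the log2 scale. Tnfr1-/- replicate 1 and wild type replicate 5 were each above the mean for 8. At the other end, wild type replicate 2 was above the mean for 1 member, and wild type replicate 3 and Tnfr1-/- replicates 3 and 6 for 2 each. The log2 difference of Dbp over Arntl, which sets an output gene against its activator, was 1.82 in wild type replicate 5, 1.32 in Tnfr1-/- replicate 2 and between 0.67 and 1.10 in the other 9 libraries. Wild type replicate 5 was thus high in most output genes and lowest in Arntl. Its skeletal muscle marker sum of 1627 was also the highest of the wild type group, and that of Tnfr1-/- replicate 2 (7574) the highest of all. The part of muscle RNA in these 2 profiles was not tested.

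**Figure D3:**
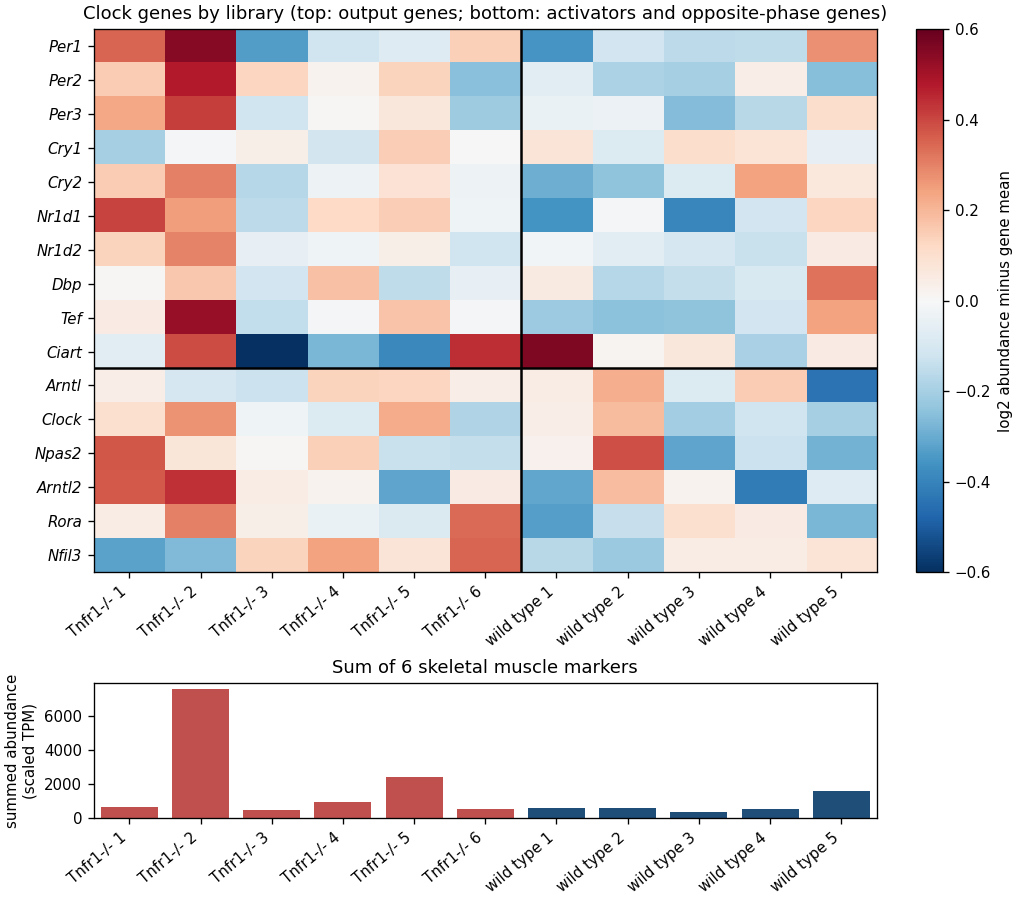
Upper panel: log2 abundance minus the gene's mean over 11 libraries (colour, scale limited to 0.6 on each side) for 10 output genes (top) and 6 activators or opposite-phase genes, with Tnfr1-/- left of the vertical line and wild type right. Lower panel: summed abundance of 6 skeletal muscle markers, from 395 in wild type replicate 3 to 7574 in Tnfr1-/- replicate 2, the library whose output genes are reddest.

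Relations across the 11 libraries were tested first for Dbp against the other 9 members and the 6 tested genes of the other arm, 15 relations in all. None passed after adjustment over the 15, whether by Pearson's r or Spearman's rho (permutation tests, 0 of 15 called by each). At an unadjusted permutation p under 0.05 there was 1 by r and 0 by rho. The highest r among members was with Tef, at 0.59 (permutation p = 0.0529, adjusted p = 0.337) with rho 0.59 (permutation p = 0.0618, adjusted p = 0.616). Without the 2 libraries farthest from the median of Dbp, Tnfr1-/- replicate 4 and wild type replicate 5, r was 0.63.

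Dbp and Arntl had r -0.61 (permutation p = 0.0438, adjusted p = 0.337) and rho -0.39 (permutation p = 0.236, adjusted p = 0.623). That relation moved with single libraries: without wild type replicate 5 r was -0.17, and without Tnfr1-/- replicate 4 it was -0.76. Without both, the 2 libraries farthest from the median of Dbp, r was -0.40. Within the 6 Tnfr1-/- libraries it was -0.00356. Per3, Per1 and Nr1d2 had r of 0.54, 0.51 and 0.50 with Dbp, Nr1d1 0.38, Cry2 0.29, Ciart 0.29, Per2 0.09 and Cry1 -0.41 (permutation adjusted p from 0.337 to 0.861). With each genotype's mean subtracted 0 of 15 were called, as within the Tnfr1-/- libraries alone (exact permutation, n = 6). The wild type group of 5 is too small for a correlation of its own.

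Several other pairs of members had a higher r than any pair with Dbp. Of all 45 pairs of members, examined after the values had been seen, 33 had a positive r and 12 a negative one, with a median r of 0.50. By r, 11 pairs were called after adjustment over the 45, all positive, and 3 by rho (permutation tests). The 11 pairs joined Per1, Per3, Nr1d1, Nr1d2 and Tef in all combinations except Nr1d1 with Nr1d2, and added Tef with Cry2 and Per2 with Nr1d2. Dbp, Ciart and Cry1 were in none of them. The adjusted calls, more than the r values, moved with single libraries: without Tnfr1-/- replicate 3 there was 1 called pair, but the median r was 0.49 and 17 pairs had an unadjusted permutation p under 0.05, against 16 with all libraries. Without wild type replicate 3 there was also 1 called pair, with a median r of 0.46 and 15 such pairs. Without Tnfr1-/- replicate 2, the library richest in muscle RNA, there was 1 called pair and the r values were lower too, with a median of 0.27 and 8 such pairs. With each genotype's mean subtracted there was 1 called pair, with a median r of 0.46 and 15 such pairs.

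**Figure D4:**
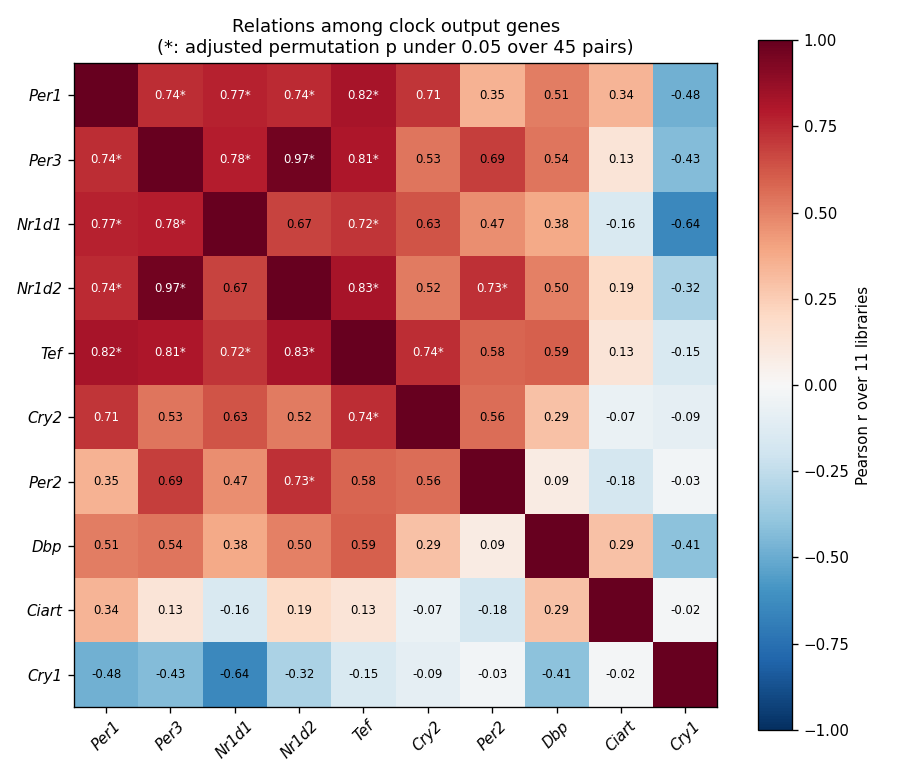
Pearson r of each pair of the 10 clock output genes over 11 libraries on the log2 scale (colour and number); an asterisk marks the 11 pairs whose permutation p, adjusted over 45 pairs, is under 0.05. Per1, Per3, Nr1d1, Nr1d2 and Tef form the block of high values, with 0.97 for Per3 and Nr1d2, while the row of Cry1 is negative throughout.

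The pair called in each of those fits was Per3 and Nr1d2. Its r was 0.97 (permutation p = 2e-05, adjusted p = 9e-04) and its rho 0.92 (permutation adjusted p = 0.009). Leaving out each library in turn gave r from 0.94 to 0.98, called in 11 of 11 fits. Within the 6 Tnfr1-/- libraries r was 0.99 (exact permutation p = 0.00139, the smallest that test can give), and without the 2 libraries farthest from the median of Per3 it was 0.91. Without the 3 libraries highest in skeletal muscle markers r was 0.93, with a permutation adjusted p of 0.0681. Among 11322 genes with a mean abundance of at least 5, Nr1d2 had the highest r to Per3, and Per3 ranked 3 by r to Nr1d2. As printed above, the Per3 promoter held 2 D-boxes and the Nr1d2 promoter none of the sequences searched.

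The next pairs were Nr1d2 with Tef (r 0.83), Per1 with Tef (0.82), Per3 with Tef (0.81) and Per3 with Nr1d1 (0.78), each with a permutation adjusted p of 0.0359. Leaving out each library in turn, these 4 were called in 7, 8, 8 and 6 of 11 fits. Without the 3 libraries highest in skeletal muscle markers, their r values were 0.45, 0.74, 0.49 and 0.78. None of the 4 was then called (permutation adjusted p from 0.189 to 0.498). Over the 45 pairs the median r was 0.33 without those 3 libraries, against 0.50 with all libraries. Cry1 ran the other way from Nr1d1, with r -0.64 (permutation adjusted p = 0.101). That pair was the 1 called without the 3 libraries highest in skeletal muscle markers, at r -0.94 (permutation adjusted p = 0.01).

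**Figure D5:**
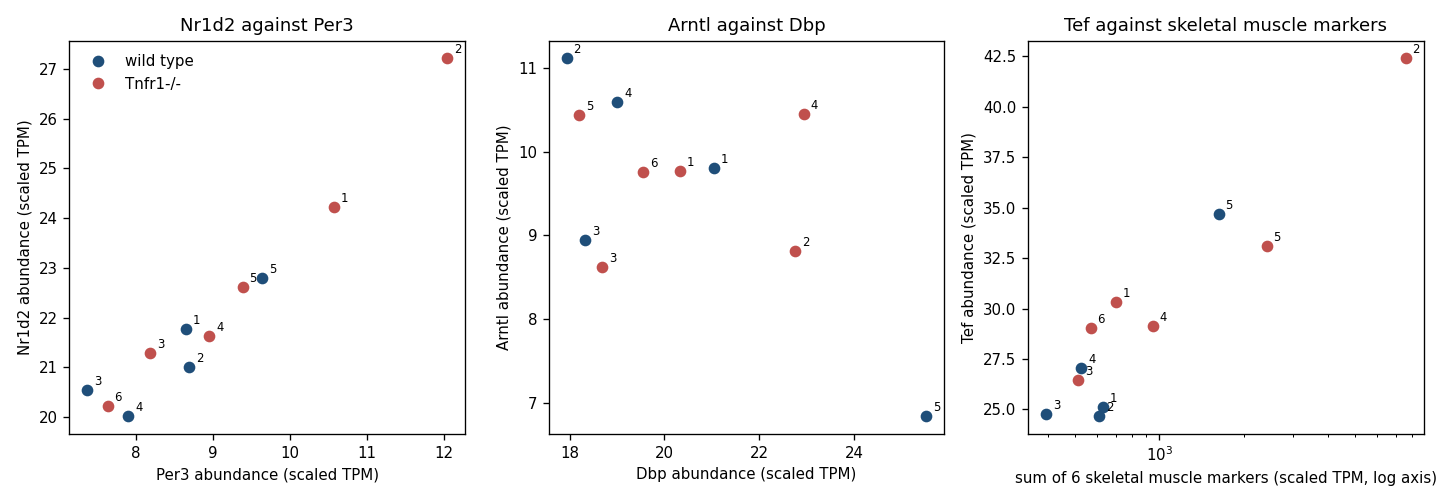
Abundance of Nr1d2 against Per3 (left), Arntl against Dbp (middle) and Tef against the summed abundance of 6 skeletal muscle markers on a log axis (right), 1 point per library with its replicate number. Nr1d2 and Per3 lie along 1 line in both genotypes (r 0.97), wild type replicate 5 lies alone at Dbp 25.5 and Arntl 6.84, and the 3 libraries with the highest muscle marker sums have the 3 highest Tef values.

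Genes outside the clock followed Dbp more closely than any member did. Of 11322 genes with a mean of at least 5, Tef ranked 156 from the top by r to Dbp, Per3 268, Per1 347, Nr1d2 373 and Nr1d1 966, and Arntl ranked 91 from the bottom. The 6 genes with the highest r were Alg13 (0.86), a subunit of an enzyme of protein glycosylation, Cdk11b (0.84), a cyclin-dependent kinase, Fkbpl (0.84), Hcfc1r1 (0.83), Rufy1 (0.82), a protein of endosome traffic, and E4f1 (0.81), a zinc finger regulator. Those with the lowest were Slc10a7 (-0.82), Hltf (-0.80), a helicase-like factor, Tmem260 (-0.78), Nfyb (-0.78), a subunit of the factor NF-Y, Cask (-0.77), a scaffold protein, and Nipsnap1 (-0.76). They were picked for this r out of 11322 genes in 11 libraries that share depth and tissue make-up, so it is given as a description without a test. Alg13 ran from 4.84 to 7.78 and Nfyb from 17.7 to 23.3.

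The abundance of a member is the sum of its transcripts, and the split among them differed. Cry1, Cry2 and Nr1d1 were nearly all 1 coding transcript (97.2%, 96.8% and 96.4% of the gene), and Per2 was 100% 1 transcript. Per3 was 47.4% the full coding transcript of 21 exons and 46.7% a processed transcript of 7 exons. The coding form was at 4.40 ± 0.947 in Tnfr1-/- (n = 6, SD) and 4.10 ± 0.352 in wild type (n = 5, SD), and the processed form at 4.56 ± 0.631 and 3.79 ± 0.616. Tef was 57.3% and 32.3% 2 coding transcripts. Per1 was divided between 2 transcripts of 23 exons (56.9% and 30.1%), the first of which ran from 0.350 to 10.2 between libraries while the gene's sum ran from 7.81 to 14.98, so that split is uncertain with reads of 75 bases from 1 end.

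The authors' deposited table listed 48 transcripts of the members and tested 27, with 1 at their p under 0.05 (3.70%, against 4.39% of all 49810 transcripts they tested). That was the coding transcript of Per2, with a log2 ratio of 0.27, p = 0.044 and q = 1 in the authors' deposited table. The next in the authors' deposited table was the processed transcript of Per3, with 0.27, p = 0.0596 and q = 1.

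Several members overlap other genes. Nr1d1 (chromosome 11, 98767932 to 98775333, GRCm38) shares 1075 bases of its end with Thra on the opposite strand, a receptor gene at 55.1 to 96.2, well above Nr1d1. Dbp (chromosome 7, 45705088 to 45710203) shares 737 bases with Sphk2, at 17.7 to 23.2, on the opposite strand. Per3 (chromosome 4, 151003652 to 151044665) lies inside Camta1, at 18.4 to 23.3, on the same strand. Ciart, Cry2 and Tef overlap noncoding genes on the opposite strand. The kit keeps strand per the labels' protocols, but whether the strand was used in assigning reads is not given in the sources used here. The overlaps were measured on whole gene spans, introns included, and whether exons are shared was not examined. Only where exons are shared may reads be divided wrongly between the genes of a pair. Strand could not separate Per3 from Camta1.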

How the data were processed

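Per the labels' protocols, total RNA was taken from whole colons in Trizol and read as stranded mRNA libraries, 75 bases from 1 end. CASAVA, kallisto, sleuth and the build mm10 are named in the submitters' processing notes, without versions. The values the authors deposited per library are a signal, TPM normalized between libraries as sleuth writes it. The authors' deposited table also gives a p-value and q-value per transcript, a mean on the natural log scale and a log2 fold change. Of 113991 lines, 798 that repeated a transcript were dropped, and the others were summed per gene (97 transcripts without a gene left out). Genes with a value of at least 1 in at least 5 libraries were compared on log2(value + 0.5), which understates changes of low genes, with limma 3.58.1 in R 4.3.3 (trended empirical Bayes, two-sided, Benjamini-Hochberg over 15079 genes, called at an adjusted p under 0.05). Fold intervals are limma's 95% intervals on that scale. Exact tests were two-sided over all 462 splits (smallest p 0.00216). Correlations used 100000 permutations, or all of them under 10 libraries. Python 3.11.15, pandas 2.3.3, numpy 2.4.6, scipy 1.17.1 and matplotlib 3.10.9 were used. Depth was estimated from the steps of low values of genes with 1 transcript: 53.5% to 54.8% of them came within 0.02 of whole reads, against 2.07% to 2.26% at a typical other factor, so no count test was run. Positions are from GENCODE M21 (GRCm38). A count test had been planned for the case of a count table, which this is not. The methods were tested on simulated data. Named genes are the members, the activator list, Tnfrsf1a, up to 4 genes with the smallest p of each further list, and the 6 genes with the highest and the 6 with the lowest r to Dbp (leaving out pseudogenes, predicted, Y-linked and Xist). Outside that rule, Hspa8, Cirbp and Rbm3 of the temperature-linked genes are also named. Muscle markers named singly were chosen after their values were seen. Some genes of the lists are not reported here. The members and lists were chosen with earlier results of these data known.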

Additional observations from a re-analysis of the deposited data

Results flagged for a closer look

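In 4 of 34 groups of values checked, the highest library stood far from the others of its genotype. A rate of 1 in 20 groups would give 1.7. The gaps were taken on abundance and not on the log2 scale. The groups also share libraries and genes that vary together, so 4 against 1.7 is not a test. Tef in wild type replicate 5 was at 34.7, with the next wild type library at 27.0. Ciart in wild type replicate 1 was at 4.07, with the next at 2.75. The summed abundance of 6 skeletal muscle markers was 7574 in Tnfr1-/- replicate 2, with the next Tnfr1-/- library at 2413, and 1627 in wild type replicate 5, with the next wild type library at 629. Tef and the muscle markers were thus both high in wild type replicate 5, and the part of muscle RNA in that value was not tested.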

How the results depend on the processing

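No member was called in the 20 alternative fits across all genes, leave-one-out fits included. The filter at 10 left out Per1, Per2, Per3 and Ciart, and the fit of the most abundant transcripts was read for its values only. Genes called over the whole table were 3 with sample quality weights and 1 to 2 leaving out each library in turn (2 without wild type replicate 1), against 1. Quantile normalization and columns rescaled to TPM moved the median of all genes to -0.01 and 0.01 and turned no member's direction. With only the most abundant transcript of each gene the log2 fold change was -0.29 for Per1, -0.10 for Dbp and 0.078 for Ciart, and with quality weights -0.032 for Dbp, which ran from -0.032 to 0.092 leaving out each library. Leaving out each library the value was 0.093 to 0.28 for Per1, 0.17 to 0.32 for Per2, 0.075 to 0.20 for Per3, -0.084 to -0.015 for Cry1, 0.056 to 0.19 for Cry2, 0.21 to 0.34 for Nr1d1, 0.049 to 0.13 for Nr1d2, 0.13 to 0.30 for Tef and -0.29 to -0.068 for Ciart. Without the 3 libraries highest in skeletal muscle markers, chosen after the data were seen, r with Dbp was 0.18 for Arntl, 0.20 for Npas2, -0.080 for Arntl2 and 0.17 for Nfil3. Without the 2 libraries farthest from the median of Dbp it was 0.31 for Clock, 0.19 for Npas2 and 0.26 for Rora. Within Tnfr1-/- it was 0.059, 0.48 and 0.26 for these 3, and on TPM 0.051 for Clock and 0.043 for Npas2. Leaving out each library, r with Dbp ran from -0.23 to 0.49 for Per2, -0.41 to 0.13 for Clock, -0.26 to 0.25 for Npas2, -0.44 to 0.14 for Rora and -0.16 to 0.15 for Nfil3. With Nr1d1 in place of Dbp, 2 relations of 15 were called, Per1 (r 0.77) and Per3 (r 0.78). Called pairs of members were 11, with 1 after subtracting genotype means, 1 without the 3 muscle-rich libraries, 18 on TPM, and 1 to 15 leaving out each library (1 when leaving out Tnfr1-/- replicate 2, replicate 3 or wild type replicate 3). The cause of these shifts was not tested. Same-numbered libraries were not matched 1 to 1: their deviations correlated at 0.27, -0.0060, 0.38, -0.22 and 0.33, and 1 of 5 matched its own number best. That check looks only at single numbers. Replicates 1 and 2 of both genotypes stood apart from the other libraries in some marker sums. For enteric neuron markers they were at 77.1 to 97.0, against 107 to 182. For colon epithelium markers they were at 4778 to 6574, against 3687 to 4632. For pancreas markers they were at 131.8 to 156.5, against 65.9 to 97.2. Immune markers did not split this way. The labels name no batch, and the cause was not tested. With the replicate block, fitted without Tnfr1-/- replicate 6, which has no partner, 1 gene and 0 members were called, and the log2 fold change was 0.30 for Nr1d1 (limma adjusted p = 0.449) and 0.32 for Per2 (limma adjusted p = 0.422). Depth limits Ciart most, at 40.9 estimated reads in its lowest library.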

Other observations

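Genes that link the clock to hormones, feeding and temperature were read beside the members, since such signals can set clock genes in the gut. Of 9 tested glucocorticoid and fasting genes, 5 were higher and 4 lower in Tnfr1-/-, 0 were called and 2, both higher, had an unadjusted limma p under 0.05, where 4.2% of all genes were higher at that p. Tsc22d3, a gene switched on by glucocorticoids, was at 47.7, 58.9, 42.5, 45.6, 53.8 and 47.0 in Tnfr1-/- replicates 1 to 6 and 32.9, 37.0, 35.96, 37.5 and 42.9 in wild type replicates 1 to 5. The groups met only where the highest wild type library passed the lowest Tnfr1-/- library. Its log2 fold change was 0.39 (SE 0.09, exact permutation p = 0.00649, limma adjusted p = 0.289). Angptl4, a fasting-induced lipase inhibitor, was at 9.08 ± 1.86 (n = 6, SD) and 6.88 ± 1.68 (n = 5, SD), with a limma adjusted p of 0.526. Pdk4, a fasting-induced kinase of pyruvate dehydrogenase, was at 14.9 ± 4.01 and 10.9 ± 3.88 (limma adjusted p = 0.591).

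Of the 8 temperature-linked genes, all tested, 6 were higher and 2 lower in Tnfr1-/-, with a median log2 fold change of 0.30, 0 called and 5 at an unadjusted limma p under 0.05, where 4.2% of all genes were higher at that p. Those 5 were the chaperone genes Hspa1a, Hspa1b, Hsph1, Dnajb1 and Hspa8. Hsph1, a partner of HSP70, was at 37.6 ± 13.2 (n = 6, SD) and 23.5 ± 2.95 (n = 5, SD), a log2 fold change of 0.60 (SE 0.22, limma adjusted p = 0.455). Dnajb1, an HSP70 cochaperone, was at 32.0 ± 5.71 and 24.3 ± 0.774, a log2 fold change of 0.37 (SE 0.11, limma adjusted p = 0.396). Hspa1b, an inducible HSP70 gene, had a mean of 54.25 ± 18.3 (n = 6, SD) against 22.8 ± 3.19 (n = 5, SD) in wild type, and its copy Hspa1a 23.9 ± 10.6 against 9.45 ± 1.14. Both had a log2 fold change of 1.17 (exact permutation p = 0.00433 and 0.00866, limma adjusted p = 0.232 and 0.296). Their groups did not overlap, 2 of the 8 genes against 1.49% of all genes. The copies are near-identical, so the division of reads between them is uncertain. The 2 lower genes were those induced by cold, Cirbp (log2 fold change -0.21, limma adjusted p = 0.675) and Rbm3 (-0.10, limma adjusted p = 0.752). Of 7 immediate early genes 6 were lower in Tnfr1-/-, with 0 called and 1, Ier2, at an unadjusted limma p under 0.05, where 5.17% of all genes were lower at that p. Ier2 was at 48.2 to 50.3 in Tnfr1-/- and 51.5 to 68.0 in wild type, with groups that did not overlap (limma adjusted p = 0.449).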
